A study of Mus musculus with 8 samples.

Results

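Vwf, Procr, Tfpi, F2r, Plat and Selp are 6 genes of hemostasis, the stopping of bleeding and the control of clotting at the vessel wall. They were picked by name from the 28014 genes counted, and their levels were read in 10 cell types of the embryonic aorta region, with most attention to the difference between endothelium and megakaryocytes. The cells came from the aorta-gonad-mesonephros region (AGM) of mouse embryos at embryonic day 10.5, where the first blood stem cells arise from arterial endothelium, and were sorted for CD31, a surface protein of endothelium and of several blood cells. Single cells of 8 libraries were read by CITE-seq, which counts RNA as unique molecular identifiers (UMIs) together with antibody tags for surface proteins. The 5 WT libraries (WT 1 to 5) carry the label WT and strain C57BL/6, and the study uses WT for littermates without Cre in its knockout cross. Whether these libraries carried a floxed Meis1, which encodes a homeobox transcription factor, is not given in the sources used here. The 3 Mff_Cre libraries (Mff_Cre 1 to 3) carry the label Meis1-flox/VE-Cre with genotype Meis1-knockout, and there Cre was driven by the promoter of Cdh5, the VE-cadherin gene, which is active in endothelium. Each library was a pool of 2 to 5 embryos of 1 genotype, so a p-value measures the spread between pools.

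The authors' cell names were used. EC here means all 6 endothelial clusters, the 4 clusters named vEC_1 to vEC_4, the arterial cluster aEC and the pre-hemogenic cluster pre-HE. The other clusters were cells in endothelial-to-hematopoietic transition (EHT), erythro-myeloid progenitors (EMP), Megakaryocytes and Myeloid cells. There were 11177 EC and 359 megakaryocytes among 15168 cells, of which 8423 were WT and 6745 Mff_Cre. Total UMIs per library lay between 20484881 and 79429129. The median cell of WT 1 to 4 held 26572 to 28553 UMIs, and that of WT 5 and the Mff_Cre libraries 9612 to 14895, so genotype and depth were partly confounded. The WT 3 library held 5 megakaryocytes, below the minimum of 10 cells, and it does not enter the tests, the values by library or the means ± SD of megakaryocytes below. Its 5 cells do enter counts and ratios pooled over WT, values per cell and the CD41 ratios. Across libraries, 33 of 15135 barcodes occurred in more than 1 library. Meis1 stood at 68.0 to 85.8 CPM, the gene's UMIs over all UMIs of the summed cells on the counts-per-million scale, in WT EHT and at 55.5 to 70.9 CPM in Mff_Cre EHT. In megakaryocytes Meis1 stood at 79.5 to 166 CPM in WT and at 51.7 to 71.6 CPM in Mff_Cre, without overlap. The genotypes overlapped in EC (4.26 to 5.18 and 3.34 to 4.51 CPM) and in pre-HE (12.9 to 51.4 and 9.57 to 53.0 CPM). Counts of 3′ ends read RNA from both the intact and the deleted allele, so these values do not check the deletion.

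Hemostasis rests on a balance at the inner face of vessels. Von Willebrand factor (Vwf) is a large adhesive protein that ties platelets to the injured wall and carries clotting factor VIII. It and P-selectin (Selp), which holds leukocytes and platelets to the surface, are kept in Weibel-Palade bodies of endothelium and in alpha granules of megakaryocytes and platelets. The endothelial protein C receptor (Procr, CD201) helps to activate the anticoagulant protein C and also marks blood stem cells. Tissue factor pathway inhibitor (Tfpi) blocks the start of coagulation, the thrombin receptor PAR1 (F2r) passes the signal of thrombin into the cell, and tissue plasminogen activator (Plat) starts the dissolving of clots. Mouse platelets are known to sense thrombin mainly through PAR3 and PAR4, the products of F2rl2 and F2rl3.

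In build GRCm38.p6, which matches the mm10 named in the submitters' processing notes, RefSeq places Vwf on chromosome 6 at 125552948 to 125686679, Procr on chromosome 2 at 155751125 to 155755478 and Tfpi on chromosome 2 at 84432855 to 84476775. F2r lies on chromosome 13 at 95601780 to 95618466, Plat on chromosome 8 at 22757722 to 22782848 and Selp on chromosome 1 at 164115264 to 164150026. The promoters of Procr, F2r and Selp are printed because these genes hold the 3 different patterns described below, namely endothelium with EHT, megakaryocytes above endothelium, and blood cells with hardly any endothelium. Each window runs from 250 bases before to 50 bases after a RefSeq start. Capitals mark every match, on either strand, to GATAA (GATA factors), AGGAAG (ETS factors), TGTGGT (RUNX factors), CACCC (KLF factors) or TGACAG (MEIS factors). The windows lie at chr2:155750967-155751266 on the plus strand for Procr, chr13:95618417-95618716 on the minus strand for F2r and chr1:164115014-164115313 on the plus strand for Selp.
Procr: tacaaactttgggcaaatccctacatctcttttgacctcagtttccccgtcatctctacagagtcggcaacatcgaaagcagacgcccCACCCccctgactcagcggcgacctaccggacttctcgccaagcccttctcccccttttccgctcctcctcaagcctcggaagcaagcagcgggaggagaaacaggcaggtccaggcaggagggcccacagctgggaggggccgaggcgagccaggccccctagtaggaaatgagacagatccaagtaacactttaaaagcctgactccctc
F2r: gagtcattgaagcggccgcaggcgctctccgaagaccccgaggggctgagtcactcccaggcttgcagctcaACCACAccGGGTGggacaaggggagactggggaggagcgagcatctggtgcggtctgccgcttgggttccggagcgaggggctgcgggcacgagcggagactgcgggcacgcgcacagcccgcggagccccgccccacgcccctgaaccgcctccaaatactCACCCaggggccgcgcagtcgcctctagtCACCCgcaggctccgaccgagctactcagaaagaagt
Selp: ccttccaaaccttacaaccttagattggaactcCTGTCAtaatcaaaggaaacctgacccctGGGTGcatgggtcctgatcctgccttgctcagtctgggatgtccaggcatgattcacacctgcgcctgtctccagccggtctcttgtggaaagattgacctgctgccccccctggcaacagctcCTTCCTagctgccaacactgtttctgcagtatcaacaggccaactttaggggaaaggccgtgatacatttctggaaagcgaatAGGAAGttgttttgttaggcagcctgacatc
The Procr window held 1 CACCC match. That of F2r held 3 CACCC matches and 1 TGTGGT match (ACCACA on the printed strand), and that of Selp held 2 AGGAAG matches, 1 CACCC match and 1 TGACAG match. Of all 32851 mouse promoter windows of this length, 57.5% held CACCC, 35.4% AGGAAG, 25.4% GATAA, 19.2% TGACAG and 16.8% TGTGGT. The matches describe letters and not bound sites.

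The question asked of EC and megakaryocytes was which of the 6 genes each cell type carried, since endothelium and platelets share much of the hemostatic machinery. Vwf, F2r and Selp were higher in megakaryocytes, and Procr, Tfpi and Plat were higher in EC, in both genotypes. All 6 genes passed the test in WT, where 57.1% of all genes tested did, and all 6 in Mff_Cre, where 54.5% did (edgeR quasi-likelihood test with the library as a block, Benjamini-Hochberg adjusted p under 0.1 over all genes). For all 6 genes the normalized values of EC and megakaryocytes did not overlap in either genotype, as held for 48.2% of all genes in WT and 56.8% in Mff_Cre. A majority of all genes therefore differ between these cell types, and the cluster names rest on these very RNA data. The sizes below are thus descriptions of how far apart the named clusters lie. In summed counts, fewer cells that carry a transcript and less of it per cell cannot be told apart, and shares of cells are given further on.

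**Figure D1:**
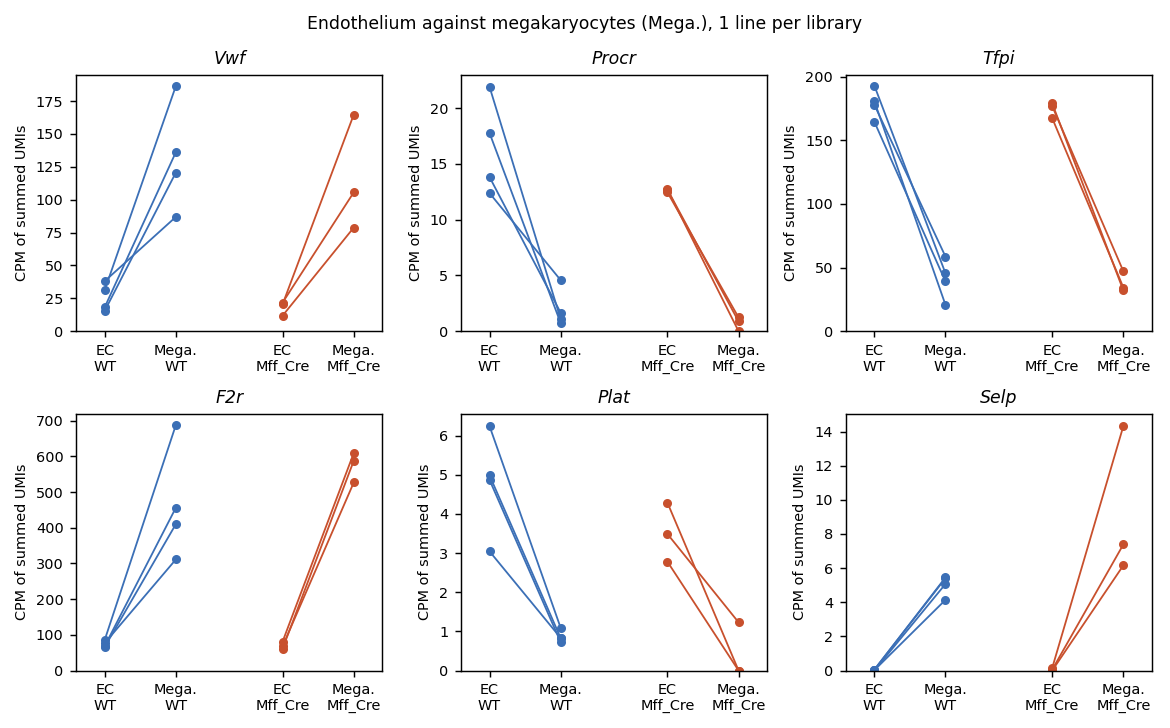
CPM of summed UMIs of each gene in EC and in megakaryocytes (Mega.), with 1 line per library, 4 WT libraries in blue and 3 Mff_Cre libraries in red. Each line of Vwf, F2r and Selp goes up from EC to megakaryocytes, from 15.5 to 121 CPM for Vwf in WT 5 for example, and each line of Procr, Tfpi and Plat goes down.

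Vwf stood at 31.3, 18.2, 38.1 and 15.5 CPM in EC of WT 1, 2, 4 and 5, and at 186, 136, 86.9 and 121 CPM in their megakaryocytes. In Mff_Cre 1 to 3 it stood at 21.8, 20.5 and 11.8 CPM in EC and 106, 165 and 78.8 CPM in megakaryocytes. The lowest megakaryocyte value thus lay above the highest EC value, and the log2 fold change of EC against megakaryocytes was -2.63 (SE 0.26, edgeR adjusted p 1.39e-05) in WT and -2.86 (SE 0.16, adjusted p 1.83e-08) in Mff_Cre. The EC mean hides an uneven spread, since pre-HE cells, which count as EC, held much more Vwf than megakaryocytes. Without pre-HE, EC stood at 17.9, 12.3, 24.5 and 13.4 CPM in the same 4 WT libraries.

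F2r stood at 688, 456, 311 and 410.1 CPM in megakaryocytes of WT 1, 2, 4 and 5 against 85.6, 68.4, 76.7 and 66.1 CPM in EC. The Mff_Cre megakaryocytes held 588, 527 and 609 CPM and their EC 61.4, 68.0 and 81.1 CPM. F2r was 6.98 times higher in megakaryocytes of WT (log2 fold change of EC against megakaryocytes -2.80, SE 0.17, edgeR adjusted p 5.16e-07) and 9.36 times higher in those of Mff_Cre (-3.23, SE 0.09, adjusted p 4.31e-11). These embryonic megakaryocytes thus carried the PAR1 transcript beside those of the platelet receptors PAR3 and PAR4. F2rl2, the gene of PAR3, stood at 434 ± 132 normalized CPM in WT megakaryocytes and 0.205 ± 0.263 in EC (SD, n = 4 each), and F2rl3, the gene of PAR4, at 68.6 ± 13.5 and 7.998 ± 0.494.

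Selp was scarce everywhere and close to absent in endothelium. It stood at 5.45, 5.07, 4.14 and 5.41 CPM in megakaryocytes of WT 1, 2, 4 and 5 and at 6.16, 14.3 and 7.39 CPM in those of Mff_Cre 1 to 3. All EC of the 5 WT libraries together held 3 Selp counts among 150979428 UMIs, and all EC of the 3 Mff_Cre libraries 3 counts among 53224254 UMIs. The ratio of megakaryocytes to EC was 246 in WT (95% counting interval 76.5 to 1259, from 30 and 3 counts) and 164 in Mff_Cre (50.4 to 843, from 27 and 3 counts). In vEC_4, aEC and pre-HE the count was 0, which allows up to 0.199, 0.1801 and 1.29 CPM in WT. These intervals and limits cover counting error only.

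Procr showed the reverse order. It stood at 21.9, 17.8, 13.8 and 12.4 CPM in EC of WT 1, 2, 4 and 5 and at 1.09, 0.724, 1.66 and 4.58 CPM in megakaryocytes, and at 12.7, 12.7 and 12.5 CPM against 0.880, 0 and 1.23 CPM in Mff_Cre 1 to 3. The log2 fold change of EC against megakaryocytes was 2.47 (SE 0.41, edgeR adjusted p 0.000554) in WT and 4.00 (SE 0.58, adjusted p 0.000117) in Mff_Cre. The megakaryocyte side rests on 15 and 2 counts, so the pooled ratio of EC to megakaryocytes was 6.38 in WT (95% counting interval 3.86 to 11.4) and 18.4 in Mff_Cre (5.09 to 153). Without WT 5, whose megakaryocytes held the highest value, the log2 fold change in WT was 3.74. Megakaryocytes with a Cdh5 UMI, 86 of 359 cells, held most of the Procr counts. With these and the 1445 EC with a Pf4 or Ppbp UMI left out, 2 Procr counts were left in WT megakaryocytes and 0 in those of Mff_Cre, while 562 and 240 Vwf counts remained there, and the log2 fold change of Procr in WT was 4.81. The Procr level of megakaryocytes also did not stand above that of Myeloid cells, at a ratio of 1.10 in WT (95% counting interval 0.593 to 1.90).

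Within EC of WT, Tfpi had the smallest relative spread across libraries of the 3 genes that were higher there. It stood at 181, 165, 193 and 178 CPM in EC of WT 1, 2, 4 and 5 and at 20.7, 39.1, 45.5 and 58.6 CPM in megakaryocytes. The difference was 1.93 on the log2 scale (SE 0.17, edgeR adjusted p 5.65e-06) in WT and 2.02 (SE 0.14, adjusted p 1.36e-07) in Mff_Cre. Plat, at 6.24, 4.87, 4.99 and 3.04 CPM in EC and 1.09, 0.724, 0.828 and 0.832 CPM in megakaryocytes of the same WT libraries, differed by 2.17 (SE 0.46, edgeR adjusted p 0.00270). The Plat counts of megakaryocytes were 6 in all 5 WT libraries, 1 of them in WT 3, and 1 in Mff_Cre, and the pooled ratio of EC to megakaryocytes was 5.00 (95% counting interval 2.28 to 13.7) and 10.1 (1.78 to 399.6). In Mff_Cre the log2 fold change of Plat was 3.11 (SE 1.01, adjusted p 0.0236), 7.92 without Mff_Cre 3, which held the only count, and 2.39 (adjusted p 0.118) without Mff_Cre 2.

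The labels of the cells were set beside marker genes and the antibody tag for CD41, a platelet integrin. The clusters were drawn on RNA and named by their top genes, so the marker genes describe the labels. Only the tag, which took no part in the clustering, is a separate check. Summed over 6 megakaryocyte markers (Pf4, Ppbp, Itga2b, Gp9, Gp1bb and Gp5), megakaryocytes reached 20937 to 40211 CPM in the WT libraries and 12343 to 22415 CPM in the Mff_Cre ones, where EC held 9.67 to 32.1 and 9.93 to 24.9 CPM. Summed over 6 endothelial markers (Cdh5, Pecam1, Kdr, Emcn, Tek and Esam), EC reached 1828 to 2222 CPM in the WT libraries and 1850 to 2222 CPM in the Mff_Cre ones, where megakaryocytes held 438 to 574 and 311 to 510.4 CPM. The mean CD41 tag count per megakaryocyte was 102 to 250.8 times that per EC in the 7 libraries with tag counts. Genes from the marker lists of other cell types were also counted in megakaryocytes. The globin genes of red cells moved with genotype there. Hba-a1 ranged from 89.8 to 782 CPM in WT and from 968 to 3297 CPM in Mff_Cre. Hbb-bh1 ranged from 23.2 to 788 CPM and from 2024 to 12165 CPM, and Hbb-y from 58.8 to 3524 CPM and from 3967 to 15135 CPM. The genotypes did not overlap for any of these 3 genes. Summed over 5 myeloid markers (Ptprc, Csf1r, Cd68, Fcer1g and Lyz2), megakaryocytes held 699.6 to 890.5 CPM in WT and 448 to 870.5 CPM in Mff_Cre, most of it Fcer1g, while arterial, venous and mesenchymal marker sums reached at most 10.4, 90.7 and 15.0 CPM. Their part in the results was not tested.

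The rest of the hemostatic machinery was read from 7 gene lists of 68 genes, none of them members. In EC against megakaryocytes of WT, 43 could be tested, of which 12 were higher in EC, 27 were higher in megakaryocytes and 4 did not pass. The median log2 fold change was -2.44 over these and 0.04 over all genes tested. All 12 genes of platelet receptors and granules were higher in megakaryocytes, among them Pf4, Thbs1 and Ppbp, and including Clec1b, a receptor of platelets that EC also carried (265 ± 21.8 against 1144 ± 613 normalized CPM, SD, n = 4). This list holds all 6 megakaryocyte markers named above, so its direction is not independent of the cluster's name. It also enters the 27 genes and the median given here. Of the coagulation factors 6 of 16 were tested, of which 3 were higher in megakaryocytes, 1 was higher in EC and 2 did not pass. F10, F5 and F13a1 were the 3, with F5, stored in platelets, at 0.669 ± 0.196 normalized CPM in EC and 123 ± 45.2 in megakaryocytes. Mcfd2, named after its values were seen, was the one higher in EC (39.7 ± 5.64 against 25.7 ± 6.39, log2 fold change 0.61). Its partner Lman1, with which it forms a cargo receptor for factors V and VIII, stood at 132 ± 11.2 and 119 ± 26.5 and did not pass.

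Among the anticoagulants, 4 of 8 were tested. Thbd, the thrombomodulin that works with Procr, was higher in EC (11.7 ± 1.27 against 3.48 ± 2.51 normalized CPM, log2 fold change 1.53), while Pros1, the cofactor of protein C, was higher in megakaryocytes (20.03 ± 1.29 against 103 ± 36.6, log2 fold change -2.30). Both tested thrombin receptors other than F2r were higher in megakaryocytes. Of 6 fibrinolysis genes tested 3 were higher in EC and 2 in megakaryocytes, with Anxa2, a cell surface partner of Plat, at 332 ± 33.6 and 48.5 ± 31.8 normalized CPM. Of 9 Weibel-Palade body and selectin genes tested, 4 were higher in EC, among them Edn1 (50.6 ± 28.8 against 2.69 ± 2.10) and Mmrn2, and 5 in megakaryocytes, among them Cd63 and Mmrn1. Nos3, Ptgis and Entpd1, whose products keep platelets quiet, were higher in EC, and Ptgs1 was higher in megakaryocytes.

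Megakaryocytes were next compared with EMP, blood progenitors from the same sorted cells, to see which genes set megakaryocytes apart from another blood cell. Both names rest on the same RNA data, so this test too is not independent of the clustering. Vwf stood at 0.330, 0, 1.24 and 1.11 CPM in EMP of WT 1, 2, 4 and 5, from 11 counts in all 5 WT libraries, and thus lay far below the 86.9 to 186 CPM of their megakaryocytes. The log2 fold change of megakaryocytes against EMP was 7.49 (SE 0.36, edgeR adjusted p 7.32e-07), and the pooled ratio was 204 (95% counting interval 113 to 411). F2r, at 32.4, 22.1, 25.7 and 40.8 CPM in the same EMP, was higher by 4.01 (SE 0.22, adjusted p 1.25e-06). Selp was higher by 1.56 (SE 0.51, adjusted p 0.0299), but without WT 2 this was 1.18 (adjusted p 0.109) and without WT 5 it could not be tested. Thus 3 of the 4 members that could be tested passed, against 58.9% of all genes, and the same 3 had values that did not overlap between the groups, as did 45.1% of all genes. Tfpi did not pass, at -0.22 (SE 0.18, 95% interval -0.57 to 0.14, adjusted p 0.344), and Procr and Plat had too few counts to be tested. The lists gave 25 genes higher in megakaryocytes, 5 higher in EMP and 5 that did not pass of 35 tested, with a median of 3.83 against -0.02 over all genes. They include the platelet list with its megakaryocyte markers, so these values are not independent of the cluster's name either.

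Within the endothelium the 6 genes were not spread evenly. Vwf was concentrated in pre-HE, at 695, 756, 927, 689 and 277 CPM in WT 1 to 5, and Mff_Cre 1 to 3 gave 604, 388 and 459.8 CPM. The pre-HE values lay above those of every other cell type in both genotypes, the 2 lowest among WT being 277 CPM in WT 5 and 689 CPM in WT 4. Megakaryocytes came next at 133 ± 41.4 CPM (SD, n = 4), then vEC_4 at 74.1 ± 18.7, EHT at 46.2 ± 13.5, aEC at 22.5 ± 16.3 and vEC_3 at 15.8 ± 2.99 CPM (n = 5 each), where each type overlapped its neighbour in this order. Below these, vEC_3 did not overlap vEC_1 at 4.82 ± 2.37 CPM, and vEC_2, Myeloid cells and EMP followed at 3.78, 1.43 and 0.537 CPM.

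**Figure D2:**
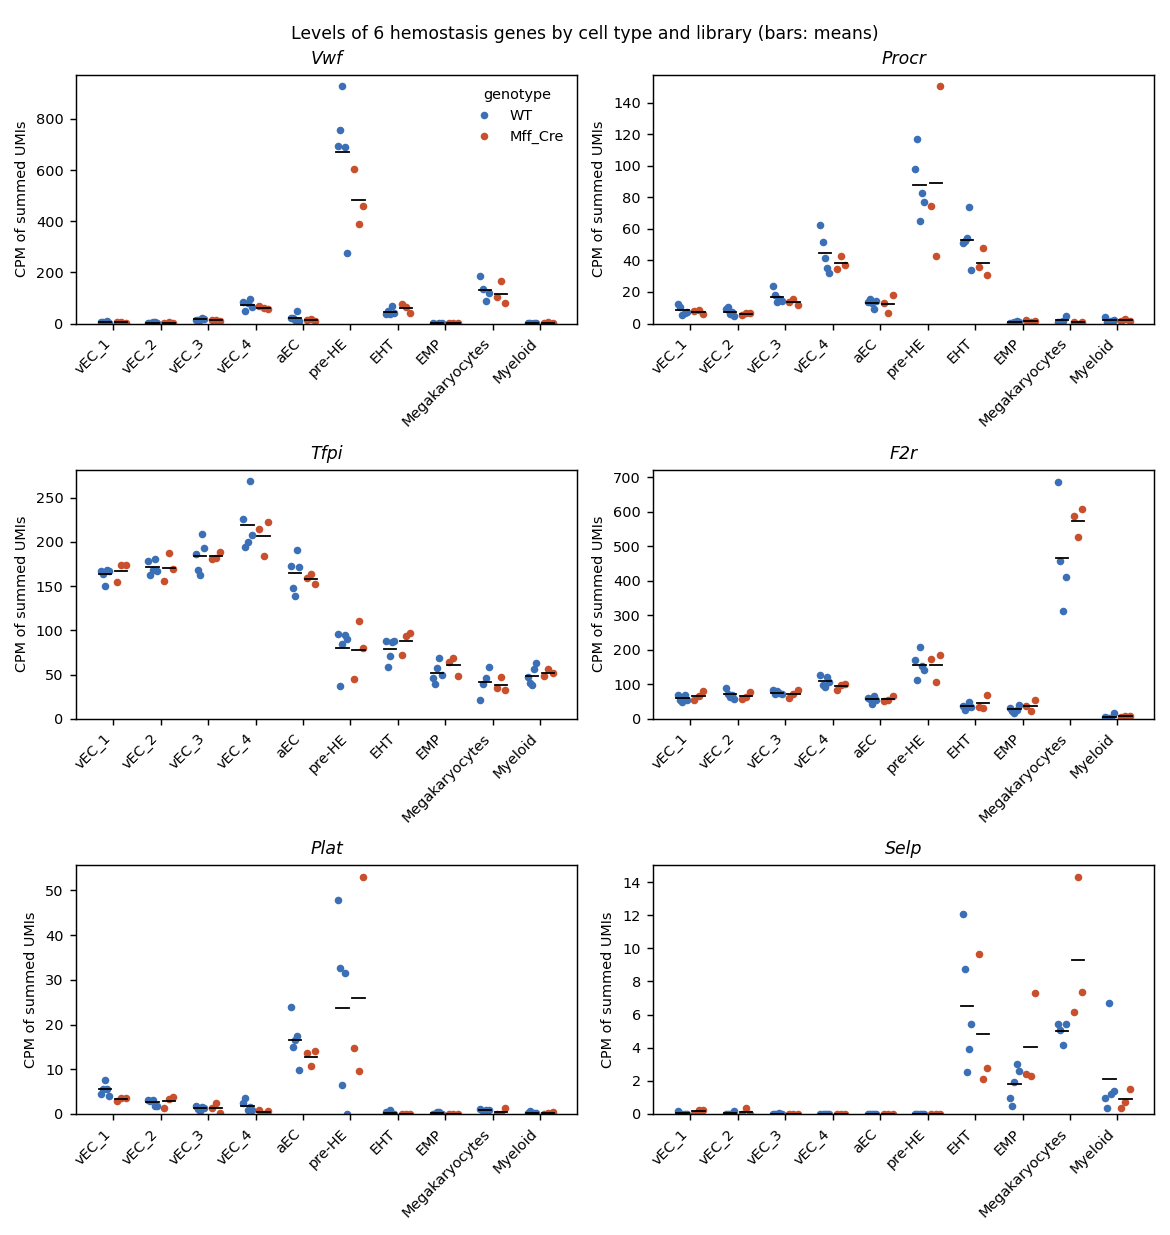
CPM of summed UMIs of the 6 genes (y axes, linear, 1 scale per gene) in the 10 cell types, with 1 point per library in WT (blue) and Mff_Cre (red) and bars at the means. Vwf has its highest points in pre-HE, Procr in pre-HE, EHT and vEC_4, Tfpi in the vEC clusters and aEC, F2r in megakaryocytes, Plat in pre-HE and aEC, and Selp in EHT and megakaryocytes. WT 3 has no point for megakaryocytes.

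Procr followed a similar but flatter order. It stood at 97.7, 117, 64.8, 83.0 and 77.2 CPM in pre-HE of WT 1 to 5, at 51.1, 52.6, 54.3, 73.9 and 33.7 CPM in EHT and at 62.5, 51.6, 41.5, 35.2 and 31.9 CPM in vEC_4. Neighbours among these 3 overlapped, although pre-HE lay above EHT in 5 of 5 libraries. The step down to vEC_3 (17.1 ± 4.27 CPM) had no overlap, and aEC, vEC_1 and vEC_2 lay at 13.2 ± 2.38, 8.51 ± 2.82 and 7.61 ± 2.28 CPM (SD, n = 5). Procr was among the genes by which the study described its pre-HE cluster, so its level there is not independent of the cluster's name. In Mff_Cre, pre-HE stood at 74.2, 43.1 and 150.3 CPM, the last of which was the highest Procr value of any library and type.

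Tfpi differed from Vwf and Procr in that pre-HE lay below the other endothelial clusters. Its WT means were 219.7 ± 30.3 CPM in vEC_4, 184 ± 18.7 in vEC_3, 172 ± 7.53 in vEC_2, 164 ± 20.6 in aEC and 163 ± 7.29 in vEC_1 (SD, n = 5), each overlapping the next. Pre-HE then fell clear of them, at 95.8, 37.3, 84.3, 94.9 and 90.1 CPM in WT 1 to 5, and overlapped EHT at 78.5 ± 13.1 CPM. EMP, Myeloid cells and megakaryocytes lay between 41.0 and 52.3 CPM.

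F2r in endothelium peaked in pre-HE, at 171, 112, 207, 152 and 142 CPM in WT 1 to 5, followed by vEC_4 at 127, 98.7, 91.0, 119.7 and 107 CPM. Pre-HE was the higher in 5 of 5 libraries, yet the ranges overlapped. The other endothelial clusters lay between 55.9 ± 8.31 CPM in aEC and 75.7 ± 5.10 CPM in vEC_3, EHT at 35.8 ± 9.06, EMP at 27.8 ± 8.99 and Myeloid cells at 5.67 ± 5.99 CPM (SD, n = 5).

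Plat was highest in aEC and pre-HE. It stood at 23.9, 15.0, 16.5, 17.5 and 9.88 CPM in aEC of WT 1 to 5, and Mff_Cre 1 to 3 gave 13.6, 10.8 and 14.0 CPM, above every value of vEC_1, which lay at 3.97 to 7.65 CPM in WT. Pre-HE gave 47.9, 32.7, 6.48, 31.6 and 0 CPM in WT 1 to 5, a spread too wide to place it above or below aEC by overlap. EHT held 2 Plat counts in all WT libraries and 0 in Mff_Cre. The pooled ratio of pre-HE to EHT was 147 in WT (95% counting interval 39.3 to 1237, from 74 and 2 counts). In Mff_Cre the pooled pre-HE level, from 11 counts, was 15.6 times the level that 3 counts over all EHT libraries would give. This is not a lower bound, since the 95% counting interval of that pre-HE level was 10.5 to 37.6 CPM.

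Selp was highest in EHT and megakaryocytes. In EHT it stood at 12.1, 8.77, 2.51, 3.91 and 5.43 CPM in WT 1 to 5, and Mff_Cre 1 to 3 gave 9.68, 2.08 and 2.77 CPM, overlapping megakaryocytes. Myeloid cells and EMP followed at 2.12 ± 2.59 and 1.801 ± 1.07 CPM in WT (SD, n = 5). Over all WT libraries EHT held 62 counts, and the ratio to EC was 337 (95% counting interval 110.0 to 1677).

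The share of each gene's endothelial UMIs that fell into each cluster shows how uneven this was. Pre-HE made up 2.45% of EC and 1.33% of their UMIs in the mean WT library but held 34.0% ± 11.9 of their Vwf UMIs (SD, n = 5, range 14.1% to 44.0%). Another 30.7% ± 9.59 of Vwf lay in vEC_4, which held 9.87% of all EC UMIs. Of Procr, vEC_4 held 28.1% ± 1.74, vEC_3 27.9% ± 1.53 and pre-HE 7.37% ± 3.17. Tfpi in pre-HE made up 0.632% ± 0.382, less than its share of all UMIs. Of Plat, aEC held 37.0% ± 6.40 with 10.7% of EC UMIs. In Mff_Cre the pre-HE share of Vwf was 26.7% ± 4.62 (n = 3) and the aEC share of Plat 38.1% ± 4.89.

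**Figure D3:**
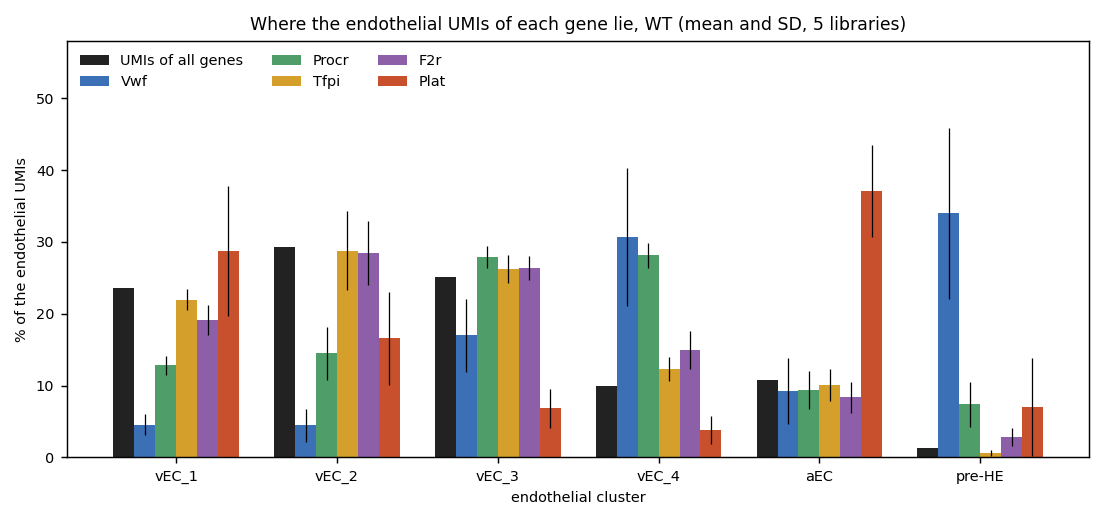
Percent of the EC UMIs of each gene that lay in each of the 6 endothelial clusters of WT (bars, mean; lines, SD over 5 libraries), beside the percent of the UMIs of all genes (black). The black bar of pre-HE is 1.33%, whereas the Vwf bar reaches 34.0%, and in aEC the Plat bar reaches 37.0% beside a black bar of 10.7%. Selp is not drawn, having 3 counts.

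The order from venous to arterial endothelium and on through pre-HE to EHT was then tested in WT (5 libraries, each a block). These clusters too were drawn on the same RNA data. The tests of these steps are therefore not independent of the clustering, and their sizes describe how far apart the named clusters lie. Between aEC and the summed vEC, 3 of 5 tested members passed, against 59.6% of all genes. Plat was higher in aEC by 2.59 on the log2 scale (SE 0.15, edgeR adjusted p 2.39e-13), a fold of 6.03. F2r was lower by a small margin (-0.32, SE 0.07, adjusted p 0.000181). Vwf was higher in aEC (0.70, SE 0.16, adjusted p 0.000615), but this rested on WT 4, which stood at 50.5 CPM in aEC beside 20.2, 19.7, 13.7 and 8.54 CPM in WT 1, 2, 3 and 5. Without WT 4 the difference was 0.28 (adjusted p 0.160), and DESeq2 gave 0.41 (adjusted p 0.324) with all libraries. Procr (-0.21, 95% interval -0.46 to 0.04, edgeR adjusted p 0.173) and Tfpi (-0.08, interval -0.17 to 0.01, adjusted p 0.172) did not pass. Of 29 listed genes tested in this step, 11 were higher in aEC, 8 were lower and 10 did not pass, with a median of 0.14 against -0.01 over all genes. Igfbp7, an angiogenesis-related secreted protein, had the largest difference among those named (206.7 ± 63.8 against 3.62 ± 1.59 normalized CPM, SD, n = 5), and Ptgs1 was lower in aEC (6.23 ± 4.22 against 17.5 ± 2.92).

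From aEC to pre-HE all 5 tested members passed, against 42.1% of all genes, with 4 higher and 1 lower. The limit on independence holds for these p-values, and Procr helped to describe the pre-HE cluster. Vwf rose by 4.66 (SE 0.16, edgeR adjusted p 7.75e-26), a fold of 25.4, and Procr rose by 2.77 (SE 0.19, adjusted p 2.44e-16), a fold of 6.81. F2r rose by 1.32 (SE 0.14, adjusted p 3.66e-10). Tfpi fell by 1.10 (SE 0.14, adjusted p 2.20e-08), to 0.4662 of its aEC level. Plat rose by 0.68 (SE 0.25, adjusted p 0.0297), but the call was lost without WT 1 (0.54, adjusted p 0.251), without WT 4 (0.58, adjusted p 0.213) and with DESeq2 (0.44, adjusted p 0.470). In Mff_Cre the pooled ratios of pre-HE to aEC were 31.5 for Vwf (95% counting interval 24.6 to 40.8), 6.53 for Procr (4.31 to 9.78) and 0.491 for Tfpi (0.350 to 0.672), given without a test.

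Of the 68 listed genes 20 could be tested in this step, of which 10 rose, 7 fell and 3 did not pass, with a median of 0.30 against 0.01 over all genes. Among Weibel-Palade body genes, Edn1, which encodes the vasoconstrictor endothelin, rose from 39.3 ± 25.8 to 665 ± 252 normalized CPM (SD, n = 5), and Cd63, a membrane protein of the same granule, from 43.3 ± 11.9 to 256 ± 72.2. Igfbp7 fell from 215 ± 67.3 to 59.4 ± 48.2. All 3 tested genes of endothelial platelet inhibition rose, with Entpd1, which breaks down ADP, going from 7.25 ± 2.01 to 90.8 ± 29.5. Thbd, the partner of Procr in protein C activation, rose from 9.97 ± 4.30 to 30.02 ± 11.99 normalized CPM, and Pros1 fell from 39.6 ± 3.52 to 26.2 ± 17.3. Clec1b fell from 618 ± 52.6 to 21.7 ± 18.3.

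From pre-HE to EHT, 3 of 4 tested members fell and none rose, where 61.6% of all genes passed in either direction. Vwf fell by 3.75 (SE 0.16, edgeR adjusted p 6.80e-20), 13.5 times lower in EHT, and F2r fell by 2.01 (SE 0.16, adjusted p 5.26e-13). Procr fell by 0.63 (SE 0.17, adjusted p 0.00232), to 0.647 of its level, and with each cell thinned to 5000 UMIs before summing the change was -0.15 (adjusted p 0.636). Tfpi did not pass (-0.03, SE 0.15, 95% interval -0.33 to 0.27, adjusted p 0.884). Plat and Selp were filtered out for low counts. The endothelial marker sum went from 3238 to 3777 CPM in pre-HE to 362 to 685 CPM in EHT of WT, and that of 3 hemogenic genes (Runx1, Gfi1 and Spi1) from 0 to 28.0 CPM to 411 to 498 CPM. Procr thus stayed at a larger part of its level than Vwf, F2r or the endothelial markers.

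Among the listed genes 27 could be tested in this second step, with 11 higher in EHT, 11 lower and 5 that did not pass (median -0.22, against 0.04 over all genes). Edn1 fell from 680.5 ± 267 to 26.1 ± 8.21 normalized CPM, Mmrn2 from 284 ± 57.9 to 14.6 ± 4.00 and Anxa2 from 598 ± 132 to 35.3 ± 20.4 (SD, n = 5). Thbd fell from 30.6 ± 12.3 to 5.57 ± 2.71. Of 5 tested genes of platelet receptors and granules, 4 rose, among them Pf4, Itgb3 and Itga2b, the last from 5.68 ± 3.29 to 18.1 ± 4.02.

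Shares of cells with at least 1 UMI were compared with every cell thinned to 5000 UMIs, since cell types differed in depth. A Vwf UMI was found in 83.7% ± 16.4 of WT pre-HE cells (SD, n = 5), 56.5% ± 18.4 of megakaryocytes (n = 4), 29.4% ± 7.63 of vEC_4, 16.05% ± 6.33 of EHT and 10.3% ± 5.99 of aEC cells. Myeloid cells, taken as the reference type for little endothelial RNA, gave 0.638% ± 0.782. The source of this share was not tested. Without thinning, the shares were 91.5% in pre-HE and 91.4% in megakaryocytes, at median depths of 12884 and 24315 UMIs, and 2.78% in Myeloid cells at 39173 UMIs. Per cell, the median was 7 Vwf UMIs in pre-HE of WT with a highest value of 37, and 3 with a highest value of 35 in megakaryocytes. In aEC of WT without thinning, most cells had no Vwf UMI, and the 89 cells with the most Vwf, of 888, held 69.8% of the counts. WT 4 alone held 341 of the 506 counts in these aEC. A Vwf UMI was in 41.1% of its aEC cells, against 7.44% to 23.5% in the other WT libraries.

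**Figure D4:**
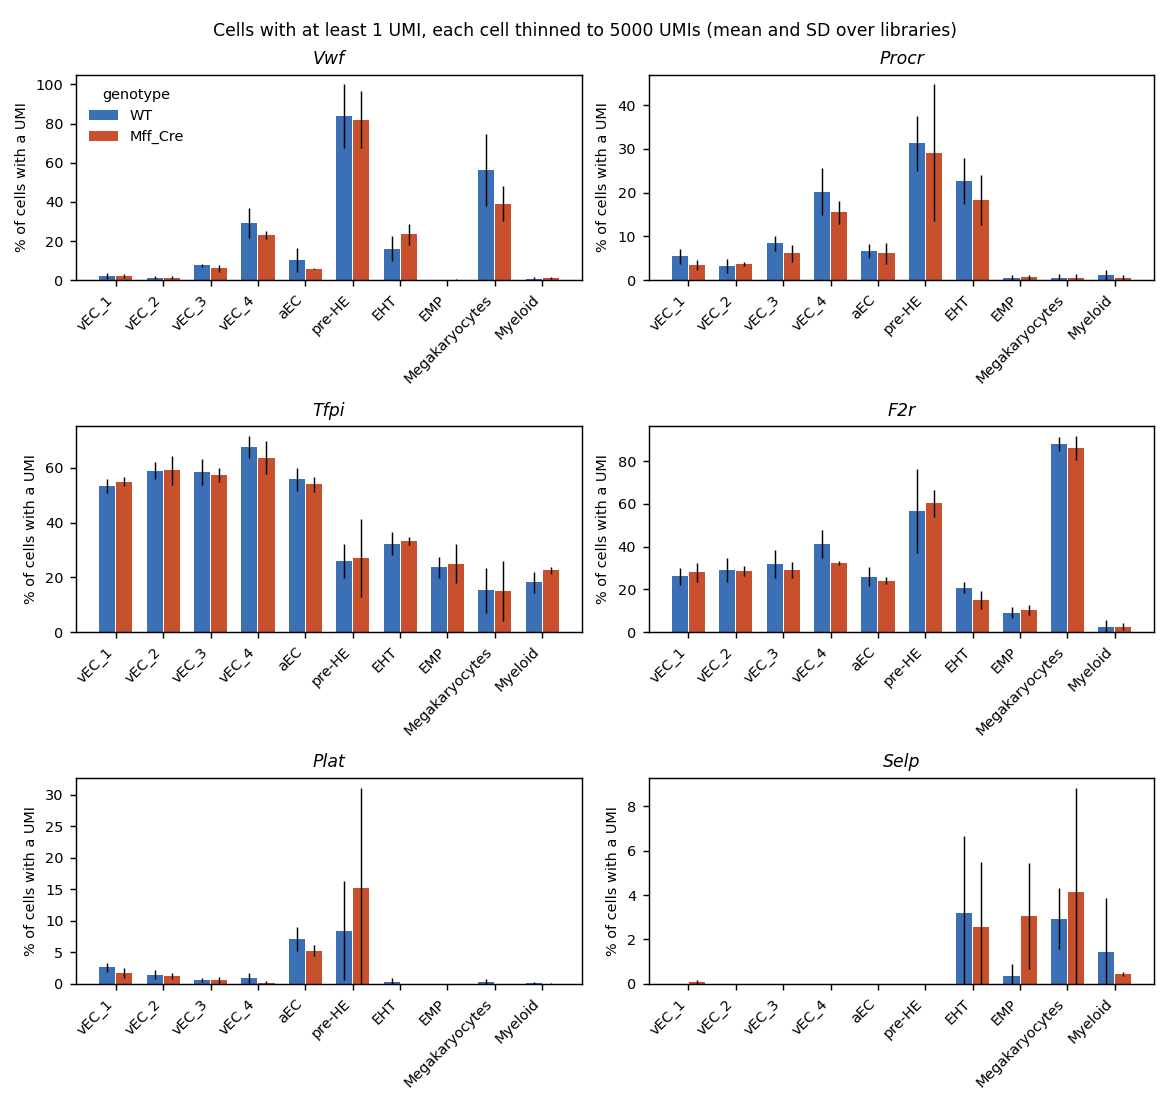
Percent of cells with at least 1 UMI of each gene (y axes from 0, 1 scale per gene) after thinning every cell to 5000 UMIs, in WT (blue) and Mff_Cre (red). Bars are means over libraries and lines the SD, drawn no lower than 0. Vwf is in 83.7% of WT pre-HE cells and F2r in 88.2% of WT megakaryocytes, while Procr in megakaryocytes, at 0.490%, is below its 1.15% in Myeloid cells.

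F2r was in 88.2% ± 3.33 of megakaryocytes (n = 4) and 56.6% ± 19.6 of pre-HE cells in WT, against 30.6% ± 3.48 of all EC and 2.44% ± 2.99 of Myeloid cells (SD, n = 5). Procr was in 31.3% ± 6.26 of pre-HE, 22.6% ± 5.24 of EHT and 20.2% ± 5.30 of vEC_4 cells. In megakaryocytes Procr was in 0.490% ± 0.980, which did not stand above the 1.15% ± 1.26 of Myeloid cells. Tfpi was in 57.5% ± 0.824 of EC, 26.0% ± 6.24 of pre-HE, 15.3% ± 8.26 of megakaryocytes and 18.2% ± 3.78 of Myeloid cells. Its shares in megakaryocytes and Myeloid cells did not differ beyond their spread. Plat was in 8.43% ± 7.86 of pre-HE and 7.14% ± 1.94 of aEC, and in 0.0709% ± 0.159 of Myeloid cells. Selp was in 3.17% ± 3.47 of EHT cells, 2.94% ± 1.39 of megakaryocytes and 0 of 6441 EC. Without thinning, 3 of 6463 EC (0.0464%) had a Selp UMI, so the 0 reflects the thinned depth. Thinning left out 22 of 6463 EC, 0 of 171 pre-HE cells and 0 of 192 megakaryocytes in WT, and 71 of 4714 EC and 13 of 77 pre-HE cells in Mff_Cre.

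Vwf and Procr were also read in the same thinned cells. In WT EHT, 24 of 49 cells with a Vwf UMI also had a Procr UMI (49.0%), against 46 of 276 cells without one (16.7%), and in Mff_Cre EHT the shares were 12 of 39 (30.8%) and 18 of 121 (14.9%). In pre-HE of WT they were 50 of 146 (34.2%) and 5 of 25, in vEC_4 25.4% and 17.0%, and in aEC 7.62% and 6.02%. F2r was in 91.4% of megakaryocytes with a Vwf UMI and in 85.1% of those without. These are shares of pooled cells from several libraries and are given without a test.

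The genotype comparison asks whether loss of Meis1 in endothelium and its progeny changed any of these genes. In no cell group did a member pass the test. Of 60 pairs of a member and a cell type, and 6 more for EC as a whole, 47 had counts enough to be tested, and 0 of 47 passed at an edgeR adjusted p under 0.1, with 1 at an unadjusted p under 0.05. The share of all genes that passed was 0.00804% in EC, 0.0% in aEC, vEC_1, vEC_3 and vEC_4, 0.0187% in vEC_2 and 0.489% in pre-HE. It was 0.127% in EHT, 4.74% in EMP, 0.206% in megakaryocytes and 3.26% in Myeloid cells. The log2 fold changes of Mff_Cre against WT lay between -0.70 and 0.83, with 30 below 0 and 17 above. The lowest was Vwf in aEC, which ranged from -0.90 to -0.054 with single libraries left out. The highest was Vwf in Myeloid cells, where it stood at only 1.43 ± 1.33 CPM in WT and 2.66 ± 1.68 CPM in Mff_Cre. Normalized values of the genotypes did not overlap for 1 pair, Plat in vEC_1, where 7.57% of all genes had no overlap. That share was 7.35% in EC, 6.26% in aEC, 5.05% in pre-HE, 7.47% in vEC_2, 6.92% in vEC_3 and 5.45% in vEC_4. It was 7.3% in EHT, 11.7% in EMP, 9.63% in megakaryocytes and 10.3% in Myeloid cells. A p that misses the threshold does not show equal levels, and intervals are given below.

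**Figure D5:**
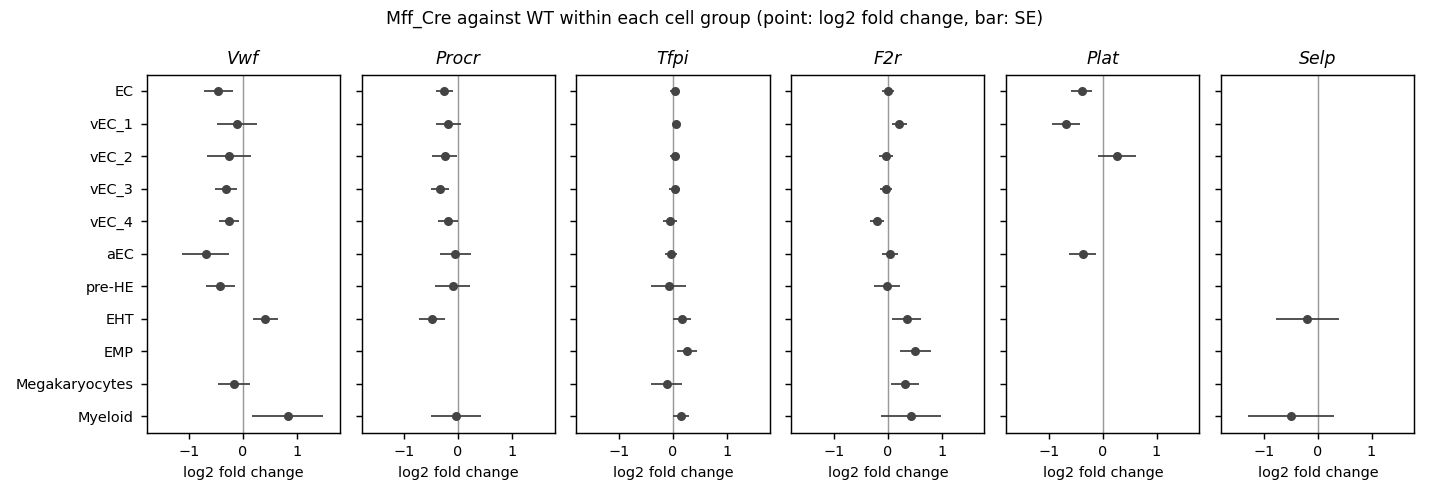
Log2 fold change of Mff_Cre against WT (x axis, points) with its SE (lines) for each gene that could be tested in each cell group (rows). Points lie between -0.70 and 0.83 and 0 of 47 passed. Tfpi and F2r in EC lie at 0.03 and 0.00.

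In EC, Vwf stood at 25.1 ± 9.39 CPM in WT (n = 5) and 18.0 ± 5.41 CPM in Mff_Cre (n = 3), a log2 fold change of -0.46 (SE 0.27, 95% interval -0.99 to 0.07, edgeR adjusted p 0.417). This EC value also depends on how many pre-HE cells each genotype held, a mean of 2.45% of EC for WT and 1.62% for Mff_Cre. Leaving out pre-HE brought the Vwf means of the remaining EC to 16.3 ± 5.07 (WT) and 13.2 ± 3.36 CPM (Mff_Cre). The part of the pre-HE share in the EC change was not tested. In pre-HE, Vwf stood at 669 ± 239 and 484 ± 110.1 CPM (-0.42, SE 0.27, interval -0.96 to 0.11, edgeR adjusted p 0.828). Against WT 5 alone, the WT library nearest in depth, which held 16 pre-HE cells and the lowest WT value, the change in pre-HE was 0.84 and thus of the other sign. That value has no spread of its own on the WT side. In EHT Vwf stood at 46.2 ± 13.5 and 60.6 ± 17.3 CPM (0.42, SE 0.24, interval -0.05 to 0.88, adjusted p 0.623), and in megakaryocytes at 133 ± 41.4 and 116 ± 43.9 CPM (-0.17, SE 0.29, adjusted p 0.911).

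Procr in EHT stood at 53.1 ± 14.3 CPM in WT and 38.1 ± 8.93 in Mff_Cre (log2 fold change -0.49, SE 0.24, edgeR adjusted p 0.559), and in pre-HE at 87.9 ± 19.97 and 89.2 ± 55.2 CPM (-0.10, SE 0.32, adjusted p 0.990). Tfpi and F2r were the best bounded in EC, at 0.03 (interval -0.14 to 0.19) and 0.00 (interval -0.22 to 0.22). The unadjusted p under 0.05 was that of Plat in vEC_1, with means of 5.48 ± 1.41 CPM (WT) and 3.31 ± 0.369 CPM (Mff_Cre) (-0.69, SE 0.26, adjusted p 0.285). F2r in megakaryocytes stood at 466 ± 159.6 and 575 ± 42.8 CPM (0.31, SE 0.26, adjusted p 0.785). Beside it, the 3 globin genes did not overlap between genotypes in megakaryocytes, and the mean megakaryocyte marker sum was 27997 CPM in WT and 16147 CPM in Mff_Cre, whose part in these values was not tested. WT 5 was the shallowest WT library, and the share of genotype in these values cannot be told apart from that of depth.

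Whether the difference between EC and megakaryocytes itself depended on genotype was tested as an interaction. Of the 6 members 0 passed, against 0.0988% of all genes. The largest difference was that of Procr, 1.54 on the log2 scale (SE 1.11, 95% interval -0.64 to 3.72, edgeR adjusted p 0.854), followed by Plat at 0.96 (SE 1.34, adjusted p 0.951) and F2r at -0.42 (SE 0.22, interval -0.85 to 0.02, adjusted p 0.785). For Vwf it was -0.22 (SE 0.35, interval -0.91 to 0.48, adjusted p 0.957). The difference in the Procr values of the 2 genotypes given above was therefore within its error.

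The genes whose pattern was most like that of each member were sought by Pearson's r of log2 CPM over 49 sums of WT, 1 per library and cell type, among 9761 genes that reached 10 CPM. Sums of 1 library share its depth, so r is a description. Vwf was most like Aff4 (r = 0.91), Ptn (0.90) and Cxxc5 (0.90), of which Ptn, a secreted growth factor, stood at 92.2 CPM in pre-HE, 22.0 in vEC_4 and 11.5 in megakaryocytes. Procr was most like Ccdc60, Pam and Cpxm1 (0.95 each), with Cpxm1 at 103 CPM in pre-HE, 53.7 in vEC_4 and 38.7 in EHT. F2r was most like Cttn (0.93), Tpm1 (0.91) and Mylk (0.90), genes of the actin skeleton and its contraction, with Mylk at 87.8 CPM in megakaryocytes and 21.6 in pre-HE. Tfpi was most like Cfdp1, Ywhaq and Coprs (0.93 each), Plat like Mtmr11 (0.87), Rem2 (0.87) and Palmd (0.86), and Selp like Cd200r1 (0.91), Il12a (0.90) and Rhof (0.89).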

How the data were processed

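CITE-seq of CD31+ cells from the AGM of E10.5 embryos was analysed in 8 libraries, 5 WT and 3 Mff_Cre. The authors mapped reads to mm10 with Cell Ranger 3.0.2 (per the submitters' processing notes), kept cells with many detected genes and low mitochondrial content, integrated the genotypes and named the clusters by hand. The deposited values were raw UMI counts per gene and cell, which held whole numbers of 0 or more, and the authors' cell names were used with them.

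UMI counts were summed per library and cell group with at least 10 cells and tested with edgeR 4.0.16 (quasi-likelihood F test, TMM, filterByExpr) in R 4.3.3, with Benjamini-Hochberg adjustment over all genes tested and a threshold of 0.1. Comparisons of cell types had the library as a block, and those of genotype had none. SE was the absolute log2 fold change divided by the square root of F, and intervals for log2 fold changes are normal approximations from it. Intervals for counts are exact, and a count of 0 was taken to allow 3 counts. Fold changes of the test come from normalized counts, whereas CPM are per total UMIs. From each gene list, up to 4 genes with the highest mean CPM over both groups compared could be named. The 6 members and all lists were chosen with earlier results of these data known. Scrublet (scanpy 1.11.5) marked 83 of 15168 cells (0.547%) as doublets, which were kept. Alternatives used DESeq2 1.42.0, other scalings and filters, thinned cells and left-out libraries. The tests were checked on simulated data, where the share of false calls lay above the threshold for EC against megakaryocytes in WT and below it in the other comparisons simulated. Columns of per-sample values that were not used numbered 0. The WT 4 library had no tag counts here. Of 8 marker lists, the summed level of 1 is not reported here.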

Additional observations from a re-analysis of the deposited data

Results flagged for a closer look

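In 48 groups of 5 WT libraries (4 for megakaryocytes), 5 groups held a library far from the others by Dixon's test, which chance gives in about 1 of 20 groups. Vwf in aEC of WT 4 stood at 50.5 CPM, against 8.54 to 20.2 CPM in the other libraries, and 131 of 319 aEC cells there had a Vwf UMI. Tfpi in pre-HE of WT 2 stood at 37.3 CPM, against 84.3 to 95.8 CPM. Tfpi in vEC_1 of WT 3 stood at 150.7 CPM, against 164 to 168.5 CPM. F2r in Myeloid cells of WT 5 stood at 16.3 CPM, against 2.23 to 4.24 CPM, and the endothelial markers summed to 206 CPM there against 40.2 to 98.4 CPM in the other WT libraries. Their part in that value was not tested. Selp in Myeloid cells of WT 3 stood at 6.69 CPM, against 0.376 to 1.37 CPM.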

How the results depend on the processing

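Over 361 alternatives for 18 counts of members called, 352 stayed within 1.5 times the count, and of 788 alternatives for 44 log2 fold changes, 731 kept direction and side of the threshold. Members called fell to 1 between aEC and vEC with Bonferroni adjustment and rose to 5 between EHT and pre-HE with no filter on low counts. The shares of all genes called at these settings are not given here. For genotype, leaving out a replicate gave 0 to 1 members called in EC and in Myeloid cells, the 1 being without WT 5 (Plat in EC -0.50, adjusted p 0.0935, and F2r in Myeloid cells 1.28, adjusted p 0.0141, both by edgeR).

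Replicate numbers are not stated to pair libraries, and same-numbered libraries correlated at -0.05, 0.29 and 0.41 in EC. A replicate block on the number keeps only numbers held by both genotypes, so WT 4 and WT 5 were left out. It sets WT 1 to 3 against the shallower Mff_Cre 1 to 3, so pairing, genotype and depth cannot be told apart. With this block, all genes called in EC went from 1 to 2425, where 12433 had been tested without it. Then 1 member was called in each of EC and vEC_1 (Plat), pre-HE and EHT (Vwf) and Myeloid cells (F2r). For the groups other than EC, the share of all genes called with the block is not given here. These calls are therefore not read as results about the members. With no block and WT 5 left out, all genes called in EC were 1618. F2r in megakaryocytes, where number 3 also dropped out, was -0.046 with the block.

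Signs turned in these cases among others, and the cause was not tested. Genotype changes near 0 turned within their ranges over all alternatives, as for Tfpi (-0.05 to 0.10) and F2r (-0.16 to 0.11) in EC, and so did Procr (-0.45 to 0.31) and Plat (-0.51 to 0.34) in aEC. Tfpi from pre-HE to EHT was 0.0094 with RLE scaling, 0.030 with DESeq2, 0.085 with no filter, 0.016 thinned and 0.053 without mixed cells, and -0.11 to 0.036 without single replicates. With WT 5 as the only WT library or depth class as a covariate, Vwf was 0.19 and 0.18 in EC, 0.82 and 0.82 in aEC, 0.84 and 0.83 in pre-HE and 0.0057 and 0.0038 in megakaryocytes. Procr was then 0.017 and 0.0043 in EC and 0.087 and 0.082 in pre-HE, Plat 0.18 and 0.17 in EC, and F2r -1.09 and -1.12 in Myeloid cells. Without single replicates, Procr in pre-HE was -0.60 to 0.28 and Vwf in megakaryocytes -0.47 to 0.080. The interaction of Vwf was 0.059 thinned and -0.41 to 0.18 without single replicates.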
